A study of Homo sapiens with 3 samples.

Results

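Ribosomal protein genes encode the protein components of the cytoplasmic ribosome, and MEIS1 peaks in the list of each cell line were examined at these genes. The members were the protein-coding genes whose full symbol is RPL or RPS with digits and an optional letter, or RPLP0, RPLP1, RPLP2 or RPSA, and which had been assigned at least 1 peak. This gave 14 genes with 17 peaks, of 5096 gene names assigned a peak in the series and of 82 ribosomal protein genes in RefSeq. LV-MEIS1 cells contributed 9 genes and 10 peaks, and HOXB13ko-LV-MEIS1 cells contributed 7 genes and 7 peaks. A peak was called a promoter peak where the annotation placed its summit at a transcription start site (promoter-TSS, from 1 kb upstream to 100 bp downstream), and 7 and 6 of these peaks were promoter peaks, respectively.

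MEIS1 ChIP-seq had been carried out in CWR22Rv1 cells, an established human prostate carcinoma line derived from a relapsed xenograft. LV-MEIS1 cells carry a lentiviral construct for exogenous MEIS1, and HOXB13ko-LV-MEIS1 cells carry the same construct after CRISPR/Cas9 knockout of HOXB13, a homeodomain protein that partners MEIS1 in prostate cells. Both lines were grown under puromycin. MEIS1 was exogenous in both groups, and no library with endogenous MEIS1 alone was compared here. The knockout line was a recombined pool of several clonal lines. By the paper's methods, these came from cells with integrated Cas9 and puromycin resistance. The pool was infected with the MEIS1 construct afterwards. Peaks were called once per line, from a pool of 3 immunoprecipitations in LV-MEIS1 and of 2 in HOXB13ko-LV-MEIS1, against 1 shared input. There is therefore no replicate behind any peak value, no test between the lines was possible, and all intervals given are 95% Wilson intervals for counting error. The comparison addresses which ribosomal protein promoters were called as MEIS1-occupied with HOXB13 present and which with HOXB13 absent. The lists hold 5968 and 2047 peaks from 202428594 and 105763683 tags, and 39102495 input tags stand behind both. The paper reports a larger number of LV-MEIS1 peaks than this list holds, and all counts here are of the list. HOXB13 loss cannot be checked from peak lists, and the paper reports it by western blot.

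Each ribosome holds a large subunit, built on RPL proteins and containing the peptidyl transferase centre, and a small subunit, built on RPS proteins and decoding the mRNA. Their genes are among the most highly transcribed in dividing cells, are expressed in a coordinated way, and have short GC-rich promoters with transcripts that begin in a pyrimidine tract. MEIS1 is a TALE homeodomain protein known to bind the word TGACA, alone or beside a HOX protein.

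The DNA under the summits is shown first, because TGACA lay at 4 of the LV-MEIS1 summits and at none of the HOXB13ko-LV-MEIS1 summits, where 55.2% and 13.5% of all promoter peaks on these lists held it. Shown from the LV-MEIS1 peaks that hold TGACA (or its reverse complement TGTCA) within 50 bp of the summit are RPL21 (chr13:27251292-27251392, plus strand), RPL24 (chr3:101686778-101686878, minus strand) and RPL39L (chr3:187139481-187139581, minus strand). All are hg38 sequence on the strand of the gene, read 5′ to 3′, with that word in capitals.
RPL21, LV-MEIS1: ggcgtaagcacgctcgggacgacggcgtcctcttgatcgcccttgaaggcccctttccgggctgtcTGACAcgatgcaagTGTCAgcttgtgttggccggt
RPL24, LV-MEIS1: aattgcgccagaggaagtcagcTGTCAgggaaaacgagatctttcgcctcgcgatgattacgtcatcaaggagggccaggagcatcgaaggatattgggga
RPL39L, LV-MEIS1: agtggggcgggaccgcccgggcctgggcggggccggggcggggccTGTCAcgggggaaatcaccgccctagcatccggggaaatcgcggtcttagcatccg
RPL21 holds 2 copies in opposite orientations, centred 18 and 32 bp from the summit. The copy nearest the summit lay 26 bp from it in RPL24 and 3 bp from it in RPL39L.

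Sequences from HOXB13ko-LV-MEIS1 summits hold no TGACA. RPS7 (chr2:3575123-3575223, plus strand) had the highest fold enrichment of these promoters, and RPS13 (chr11:17077787-17077887, minus strand) holds the word ACTACA (or TGTAGT), here in capitals, as does the summit window of RPL6. RPS26 is given at both summits (chr12:56041705-56041805 in LV-MEIS1 and chr12:56041754-56041840 in HOXB13ko-LV-MEIS1, plus strand), since it was the one promoter peak shared by the lines. The latter window was trimmed so that it holds no more than 30 exon bases.
RPS7, HOXB13ko-LV-MEIS1: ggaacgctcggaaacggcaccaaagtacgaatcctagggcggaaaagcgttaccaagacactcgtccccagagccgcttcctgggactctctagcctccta
RPS13, HOXB13ko-LV-MEIS1: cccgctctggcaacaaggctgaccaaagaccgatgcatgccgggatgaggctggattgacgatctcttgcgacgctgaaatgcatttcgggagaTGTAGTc
RPS26, LV-MEIS1: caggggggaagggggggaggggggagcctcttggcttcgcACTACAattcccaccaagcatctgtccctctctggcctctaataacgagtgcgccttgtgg
RPS26, HOXB13ko-LV-MEIS1: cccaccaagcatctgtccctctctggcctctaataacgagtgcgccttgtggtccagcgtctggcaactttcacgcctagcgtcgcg
ACTACA was picked after these sequences had been read. Its position 7 bp from the LV-MEIS1 summit of RPS26 is 56 bp from the HOXB13ko-LV-MEIS1 summit, outside the window printed for that list.

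Most ribosomal protein promoters with a peak were called in 1 line, as were most promoters of all genes. RPL3, RPL21, RPL24, RPL39L, RPS26 and RPS27 were among the 7 genes with a promoter peak in LV-MEIS1 cells, and RPL6, RPL31, RPS7, RPS13, RPS20 and RPS26 had one in HOXB13ko-LV-MEIS1 cells. RPS26 was the only gene with a promoter peak on both lists, which leaves 6 genes called only in LV-MEIS1 and 5 only in HOXB13ko-LV-MEIS1, beside 922 and 299 of all protein-coding genes. In LV-MEIS1 this was 7 of 82 ribosomal protein genes, 8.54% (4.20 to 16.6%), where 5.09% of 20052 protein-coding genes had a promoter peak. In HOXB13ko-LV-MEIS1 it was 6 of 82, 7.32% (3.40 to 15.1%), beside 1.98% of all protein-coding genes. The interval for the ribosomal protein genes includes the share of all genes in LV-MEIS1 cells and lies above it in HOXB13ko-LV-MEIS1 cells. These intervals take genes as independent and hold no replicate error. With only peaks of at least 5-fold enrichment, the knockout line kept 3 genes (RPL31, RPS7 and RPS20), 3.66% beside 1.20% of all genes. Transcription and chromatin openness of these genes were not measured in the peak lists, and their part in these shares was not tested.

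For each ribosomal protein gene with a promoter peak in HOXB13ko-LV-MEIS1 there were 1.17 in LV-MEIS1. Over all protein-coding genes that ratio was 2.57, from 1020 and 397 genes. At a fold enrichment of at least 5 the counts were 6 and 3 ribosomal protein genes, beside 771 and 240 of all genes. The near-equal counts thus did not hold at that minimum. At a −log10 q of at least 5 the counts were 7 and 5, beside 961 and 329 of all genes. Neither minimum is matched between the lists for the depth of the pools. Ribosomal protein promoters made up 0.582% (0.282 to 1.20%) of 1203 promoter peaks in LV-MEIS1 and 1.20% (0.549 to 2.58%) of 502 in HOXB13ko-LV-MEIS1, and these intervals overlap. The large subunit had 4 of 50 genes with a promoter peak in LV-MEIS1 and 2 of 50 in HOXB13ko-LV-MEIS1. Small-subunit genes had 3 and 4 of 32, so neither subunit was without members on either list.

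**Figure D1:**
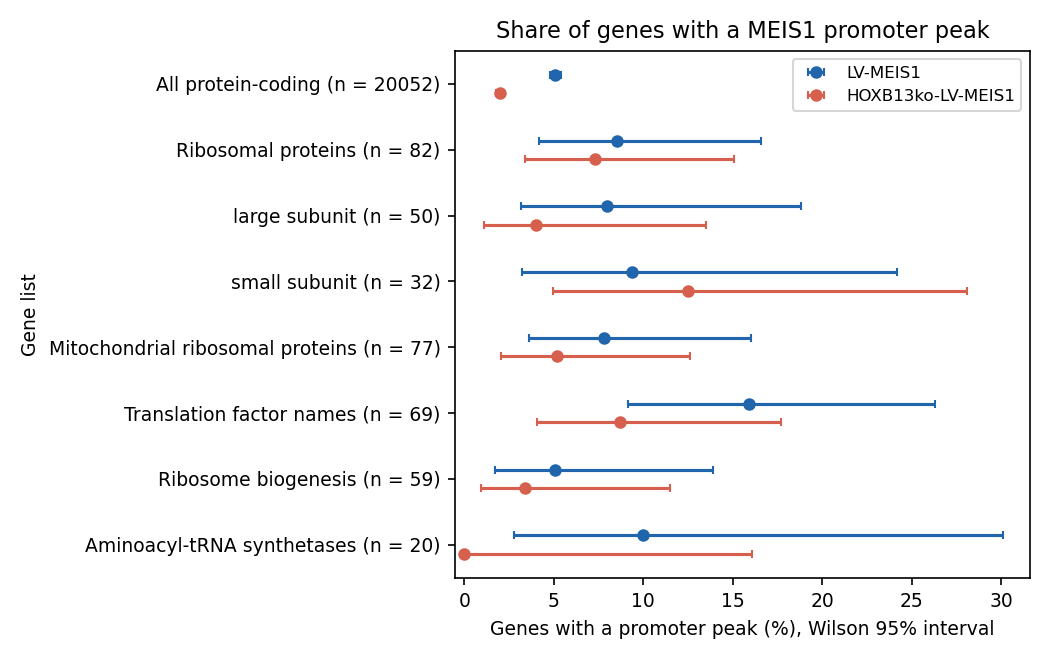
Percent of genes in each list with a promoter peak (x axis) in LV-MEIS1 (blue) and HOXB13ko-LV-MEIS1 (red), with 95% Wilson intervals as bars and the gene lists on the y axis. Ribosomal proteins stood at 8.54% and 7.32%, and all protein-coding genes at 5.09% and 1.98%.

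Sharing was low, as it was among promoters as a whole. One gene in common is 14.3% of the ribosomal protein genes called in LV-MEIS1 and 16.7% of those called in HOXB13ko-LV-MEIS1. Over all protein-coding genes 98, or 0.489%, had a promoter peak on both lists, 9.61% of the LV-MEIS1 genes and 24.7% of the HOXB13ko-LV-MEIS1 genes. Counted as peaks that overlap by at least 1 bp, 1 of 7 and 1 of 6 ribosomal protein promoter peaks were shared, beside 11.1% and 24.9% of all promoter peaks. A gene with no peak on a list is one where no position passed the threshold of the authors, and lower occupancy there would not be listed. The lowest summit pileup of any listed peak was 14.3 in LV-MEIS1 and 14.8 in HOXB13ko-LV-MEIS1.

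RPS26, a small-subunit protein at the mRNA exit channel and a Diamond-Blackfan anaemia gene, carried the shared peak. In LV-MEIS1 cells the peak spanned chr12:56041602-56041918, with a scaled pileup of 26.9 reads at the summit over a background of 3.38, 6.36-fold enrichment and a −log10 q of 11.4. In HOXB13ko-LV-MEIS1 cells it spanned chr12:56041740-56042196, with a pileup of 18.9 over a background of 3.42, 4.49-fold enrichment and a −log10 q of 4.50. The overlap was 179 bp, 56.5% of the LV-MEIS1 peak and 39.2% of the HOXB13ko-LV-MEIS1 peak. The summits were 49 bp apart, 147 and 98 bp upstream of the start site. By fold enrichment RPS26 was at percentile 53.9 of its list in LV-MEIS1 and at percentile 19.6 in HOXB13ko-LV-MEIS1, where it was the weakest of the 6 ribosomal protein promoters. No TGACA lay within 100 bp of either summit.

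The LV-MEIS1 promoters covered a wide range of enrichment. RPS27, a zinc-finger protein of the small subunit, was highest with a pileup of 41.5, 10.4-fold enrichment, a −log10 q of 27.3 and percentile 92.3 (chr1:153990510-153990840). RPL24, which lies at the interface of the subunits, had a pileup of 32.1 and 7.69-fold enrichment at percentile 74.1 (chr3:101686688-101686975). Both stood in the upper part of the list.

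RPL21, a large-subunit protein, had a pileup of 26.9 and 7.15-fold enrichment at percentile 67.5 (chr13:27251221-27251476). RPL39L, a paralogue of the exit-tunnel protein RPL39 known for its expression in testis, had a pileup of 34.0 but only 5.83-fold enrichment at percentile 41.9, and its background of 5.00 was the highest among these promoters (chr3:187139402-187139663). RPL3, which reaches the peptidyl transferase centre, was lowest with a pileup of 18.7, 4.93-fold enrichment, a −log10 q of 5.81 and percentile 19.8 (chr22:39319604-39319805).

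Fold enrichment in HOXB13ko-LV-MEIS1 cells was highest at RPS7, a small-subunit protein also known to bind MDM2. Its pileup was 31.8, its fold enrichment 8.42, its −log10 q 17.1 and its percentile 85.1 (chr2:3575055-3575314). RPS20, in the head of the small subunit, followed with a pileup of 23.7 and 6.33-fold enrichment at percentile 61.3 (chr8:56074486-56074715). RPL31, a large-subunit protein near the exit tunnel, had a pileup of 22.2 and 5.95-fold enrichment at percentile 52.1 (chr2:101002028-101002282). RPS7 thus stood apart from the other members, which were at or below percentile 61.3.

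RPS13, a small-subunit protein, had a pileup of 18.9 and 4.96-fold enrichment at percentile 30.2 (chr11:17077756-17077980). RPL6, a large-subunit protein, had a pileup of 19.6 and 4.77-fold enrichment at percentile 25.5 (chr12:112409535-112409895). Their −log10 q values of 5.31 and 5.38, with the 4.50 of RPS26, were the lowest of the 13 ribosomal protein promoter peaks.

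Median fold enrichment of the ribosomal protein promoters was 7.15 in LV-MEIS1 beside 5.96 for all promoter peaks, and 5.46 beside 5.34 in HOXB13ko-LV-MEIS1. The median percentile was 67.5 beside 45.2 and 41.1 beside 39.1. Individual members spanned percentiles 19.8 to 92.3 and 19.6 to 85.1, so neither group stayed within a narrow range. Enrichment was ranked within a list and was not compared directly between lists, because the pools differ in depth and were scaled to the same input.

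**Figure D2:**
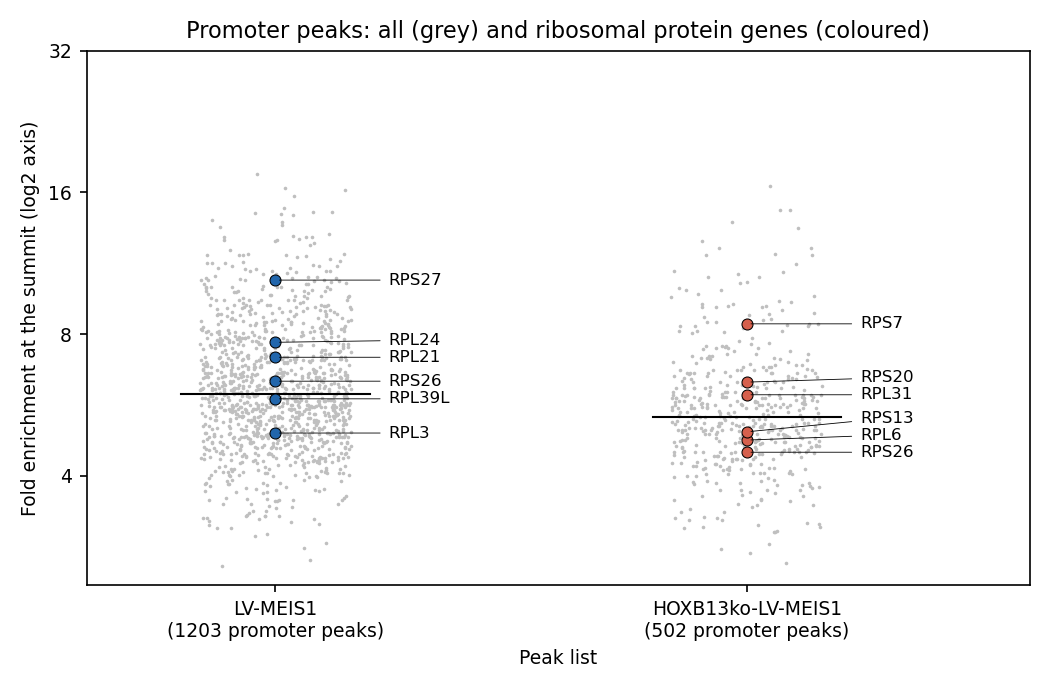
Fold enrichment at the summit on a log2 axis (y axis) for every promoter peak (grey points) and for 12 of the 13 ribosomal protein promoter peaks (coloured, labelled) in each peak list (x axis), with the median of all promoter peaks as a black line and points spread sideways for visibility only. LV-MEIS1 members run from 4.93 (RPL3) to 10.4 (RPS27) and HOXB13ko-LV-MEIS1 members from 4.49 (RPS26) to 8.42 (RPS7).

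Summits lay just upstream of the start sites in both lines. In LV-MEIS1 cells all 7 summits were upstream, from 213 bp (RPL21) to 40 bp (RPL3), with a median distance of -107 bp beside -72 bp for all promoter peaks. In HOXB13ko-LV-MEIS1 cells 5 of 6 were upstream, from 164 bp (RPS13) to 90 bp (RPS7), and RPS20 lay 2 bp downstream, with a median of -95.5 bp beside -59 bp. The place of RPS20 depends on the transcript, since its summit lay 73 bp upstream of the canonical start site in GENCODE. Among all promoter peaks 73.3% and 70.5% of summits were upstream. The peaks of RPL21 and RPS13 ended upstream of the annotated start, whereas the other 11 spanned it. Against canonical starts the RPL31 peak ended upstream as well, with its summit 171 bp from that start.

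**Figure D3:**
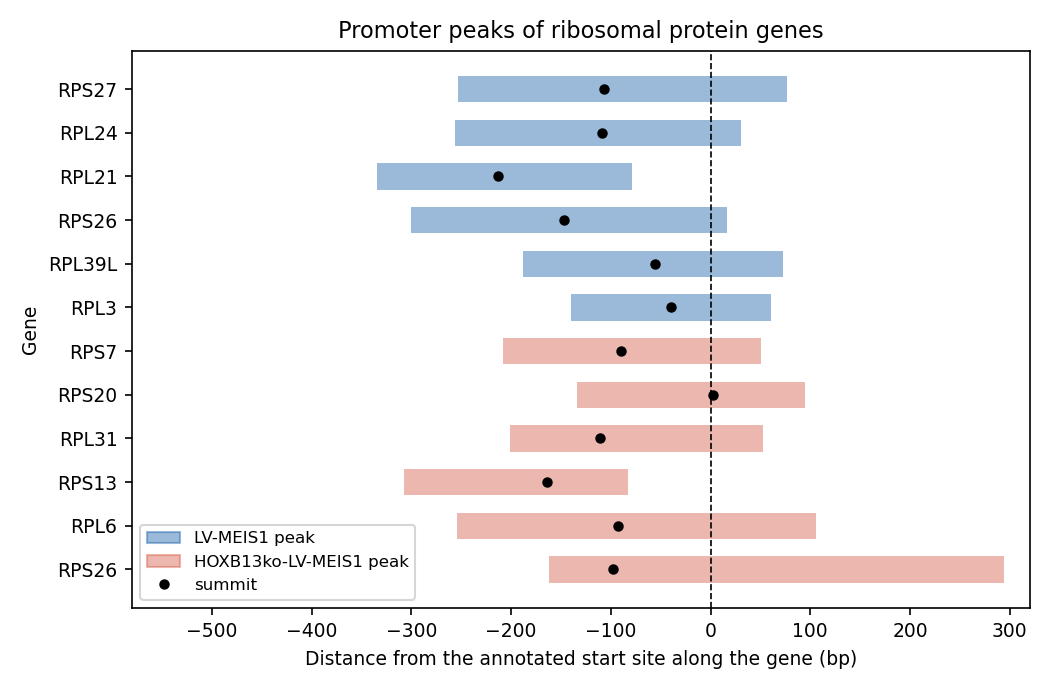
Extent of 12 of the 13 ribosomal protein promoter peaks (bars) and its summit (black points) against the distance in bp from the annotated start site along the gene (x axis), with 1 row for each gene and list (y axis), LV-MEIS1 in blue and HOXB13ko-LV-MEIS1 in red. Summits run from -213 bp (RPL21) to -40 bp (RPL3) in LV-MEIS1 and from -164 bp (RPS13) to 2 bp (RPS20) in HOXB13ko-LV-MEIS1.

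MEIS1 words were counted around the summits. TGACA on either strand lay within 50 bp of the summit in 4 of 7 ribosomal protein promoters of LV-MEIS1 (57.1%), beside 55.2% of all promoter peaks in that list and 15.4% of windows of equal length placed 500 bp to each side. In HOXB13ko-LV-MEIS1 it was in 0 of 6, beside 13.5% of all promoter peaks and 12.5% of the flanking windows. The ribosomal protein promoters of LV-MEIS1 thus held the word about as often as promoter peaks in general, and a count of 0 of 6 has a Wilson upper limit of 39.0%, above the 13.5% of all promoter peaks. RPS27, which had the highest enrichment, held its nearest TGACA 50 bp from the summit, reaching past the window, and RPL3 and RPS26 held none within 100 bp.

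Promoter sequence was next read from 250 bp before to 50 bp after the canonical start site of each gene in GENCODE 44. Every gene was read, with or without a peak. These windows hold the summits of the ribosomal protein promoter peaks, so copies near those summits are counted again here. TGACA was in 16 of 82 ribosomal protein windows (19.5%), beside 32.2% of 20009 protein-coding genes. Of those 16 genes, 5 had an LV-MEIS1 promoter peak (RPL21, RPL24, RPL39L and RPS27 among them) and none had a HOXB13ko-LV-MEIS1 promoter peak. Of the 66 genes without the word, 2 had one in LV-MEIS1 (RPL3 and RPS26) and 6 in HOXB13ko-LV-MEIS1. In percent this was 31.2% against 3.03% in LV-MEIS1, beside 8.40% against 3.49% for all protein-coding genes. In HOXB13ko-LV-MEIS1 it was 0% against 9.09%, beside 1.74% against 2.09%. The ribosomal protein shares rest on few genes with a peak, and no interval was computed for them. Whether genes with and without the word differ in either line was not tested. TGACA was also in the windows of 11 ribosomal protein genes with no promoter peak on either list, among them RPL10, RPL26 and RPSA.

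Other words were searched on both strands in the same windows. ATAAA, the core of the sequence known for HOXB13, was in 0 of 7 and 0 of 6 summit windows, beside 11.2% and 4.58% of all promoter peaks. GGGCGG, the GC box, was in 3 of 7 (RPL3 and RPL39L among them) and 1 of 6 (RPS7), beside 39.6% and 28.3%. CCGGAAG, the ETS word, was in RPL3 alone, beside 7.65% and 12.4%. TATAA was in RPS20 alone, beside 4.49% and 3.39%. AAGATGG, the word of YY1, and TCTCGCGA were in none of the 13 windows.

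Members without a promoter peak were fewer. RPLP1, an acidic protein of the ribosomal stalk, was the nearest gene to a pair of LV-MEIS1 intergenic peaks 15116 and 15961 bp downstream of its start. The nearer peak (chr15:69467747-69468120) had 12.9-fold enrichment, a −log10 q of 38.0 and percentile 97.7, above every ribosomal protein promoter, and held both TGACA and ATAAA within 50 bp of its summit. The other (chr15:69468621-69469002) had 9.52-fold enrichment and held TGACA. RPS29, a zinc-binding small-subunit protein, was named for an LV-MEIS1 peak 602892 bp from its start (chr14:48983412-48983647), with 5.92-fold enrichment and both words. In HOXB13ko-LV-MEIS1 cells RPL39L was named for a peak 5869 bp upstream of its start, inside a THE1D-int element of the ERVL-MaLR family of long terminal repeats (chr3:187145219-187145435), with 5.30-fold enrichment. Its summit lay 5813 bp from that of the LV-MEIS1 promoter peak of the gene, so RPL39L was on both lists through different sites. At these distances the assignment says only that the start site was the nearest.

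Around the 11 promoters called in only 1 line, the nearest summit on the other list lay between 5813 bp (RPL39L) and 1028988 bp (RPL21) away. It was 9770 bp away for RPL24, 16762 bp for RPS7 and 23339 bp for RPS27. No called peak of the other list thus lay close to these promoters. They were chosen as lacking a promoter peak there, and a shifted peak below the threshold would not be listed. A small shift of the summit therefore cannot be judged from these lists.

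The naming of peaks by the nearest start site also left some ribosomal protein promoters under other names. When any summit within 1000 bp of a GENCODE start of the gene was counted, 8 of 82 ribosomal protein genes had a peak in each list (9.76%), beside 7.49% of 20020 genes in LV-MEIS1 and 3.07% in HOXB13ko-LV-MEIS1. In HOXB13ko-LV-MEIS1 this added RPS29, whose canonical start lay 231 bp from a peak named for RN7SL1, the RNA of the signal recognition particle (chr14:49586472-49586821), with 6.04-fold enrichment. It also added RPL36, a large-subunit protein, through a peak named for HSD11B1L that lay 566 bp from an alternative start but 9679 bp from the canonical one. In LV-MEIS1 it added RPS29 through a peak named for LRR1, 496 bp from an alternative start and 12806 bp from the canonical one. RPS29 was then on both lists through different peaks.

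Other genes of translation were counted in the same way. Among 77 mitochondrial ribosomal protein genes, 6 had a promoter peak in LV-MEIS1 (7.79%), 4 in HOXB13ko-LV-MEIS1 (5.19%, 2.04 to 12.6%) and 2 in both (MRPL24 and MRPL51). Among 69 genes with names of translation factors, the counts were 11 (15.9%), 6 (8.70%, 4.05 to 17.7%) and 3, and the shared genes were EEF1A1 (the elongation factor that delivers aminoacyl-tRNA), EIF3K (a subunit of initiation factor eIF3) and EIF4A2 (an RNA helicase of initiation). Both of these gene lists also had a share in HOXB13ko-LV-MEIS1 above the 1.98% of all protein-coding genes, and their intervals lay above it. In LV-MEIS1 the interval of the translation factors (9.14 to 26.3%) likewise lay above the 5.09% of all genes. The interval of the mitochondrial ribosomal protein genes in LV-MEIS1 included 5.09%. A share above that of all genes was thus not limited to the HOXB13ko-LV-MEIS1 list. The names taken for translation factors include EIF2AK3, EIF4EBP3 and EEF1AKMT1, which encode a kinase, a binding protein and a methyltransferase, and each had a promoter peak in LV-MEIS1. Of 59 ribosome biogenesis genes, EMG1, SBDS and TCOF1 were called in LV-MEIS1 (5.08%) and DDX47 and NOP10 in HOXB13ko-LV-MEIS1 (3.39%). Of 20 aminoacyl-tRNA synthetase genes, EPRS1 and MARS1 were called in LV-MEIS1 (10.0%) and none in HOXB13ko-LV-MEIS1. A list of 6 genes for ribosomal proteins or their relatives under other names (among them FAU, RACK1, RPL7L1 and RSL24D1) had 1 promoter peak, RPL22L1 in LV-MEIS1, at 4.71-fold enrichment.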

How the data were processed

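MEIS1 ChIP-seq peaks of CWR22Rv1 cells were analysed from the peak lists and annotations deposited for LV-MEIS1 and HOXB13ko-LV-MEIS1 cells, grouped by the treatment named in the labels. The authors trimmed 50 bp reads (Trimmomatic 0.38), removed duplicates (Picard 2.18.10), aligned to hg38 (Bowtie2), merged the immunoprecipitations of a line, and ran MACS2 2.1.2 against 1 input, with reads extended to 200 bp and a q-value limit of 0.01. The larger data set was scaled to the smaller, so pileups are on the scale of the input. The input has fewer tags than either pool, and the background is only as precise as its depth allows.

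The deposited signal is the scaled pileup at the summit. The deposited fold enrichment divides pileup plus 1 by local background plus 1, and the background was computed back from it. Each p-value and q-value is deposited as its −log10. The authors obtained the distance to the nearest start site, treated here as a score in bp, with HOMER 4.9.1.

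Promoter peaks were counted per gene against the protein-coding genes of RefSeq, shared peaks by an overlap of at least 1 bp, and words in hg38 within 50 bp of summits. Percentiles of fold enrichment are within each list. No test and no p-value was computed, because each line has 1 list. Counting steps were tested on simulated data with known answers. Ribosomal protein genes with a promoter peak are named, apart from 1 that is counted but not reported here, and members with only a distant peak are named with the distance. Genes of other translation lists were to be named where both lists hold a promoter peak, and those with 1 were named after their values were seen. The members and lists were chosen with earlier results of these data known. Alternatives were a −log10 q of at least 5, a fold enrichment of at least 5, promoters by distance (500 or 1000 bp), genes by position, added gene names (such as FAU and RACK1), chromosomes 1 to 22, X and Y, stricter overlap, the strongest peak of each gene, and other words or windows. The canonical start site was added after the data were seen. Python 3.11.15, pandas 2.3.3, numpy 2.4.6, scipy 1.17.1 and pysam 0.24.0 were used.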

Additional observations from a re-analysis of the deposited data

How the results depend on the processing

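Over 93 recomputed values of 11 results under 13 alternatives, 82 stayed within 1.5 times the reported count or within the spread among the member peaks, 11 moved, and 0 reversed. The count of ribosomal protein genes with a promoter peak in both lines was 1 as reported. It fell to 0 at a −log10 q of at least 5, at a fold enrichment of at least 5 and when the overlap had to cover 50% of each peak, and it was 2 when genes were assigned by position. The shared promoter peaks, counted from either list, went from 1 to 0 under the same 3 stricter settings. The HOXB13ko-LV-MEIS1 peak of RPS26 has a −log10 q of 4.50 and a fold enrichment of 4.49, and the overlap covers 39.2% of it and 56.5% of the LV-MEIS1 peak. HOXB13ko-LV-MEIS1 cells had 3 ribosomal protein genes with a promoter peak at a fold enrichment of at least 5, where 6 were reported. No paired analysis was possible because each line has 1 peak list and no test was made. Leaving out an immunoprecipitation was not run, since the lists are pooled. The lower depth in HOXB13ko-LV-MEIS1 cells, with 2 immunoprecipitations against 3, and the loss of HOXB13 cannot be told apart as sources of a missing peak. The same holds for the integrated Cas9, the cloning and pooling, and the separate infection with the MEIS1 construct.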

Other observations

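ACTACA, chosen after the sequences had been read, opens the longer sequence known to be bound by ZNF143. It lay within 50 bp of the summit in 2 of 6 ribosomal protein promoters of HOXB13ko-LV-MEIS1 (RPL6 and RPS13) and in 1 of 7 of LV-MEIS1 (RPS26), beside 9.16% and 2.83% of all promoter peaks. In the flanking windows of all promoter peaks it was in 5.28% and 3.74%, and in those of the ribosomal protein promoter peaks in 8.33% and 14.3%. Over the canonical promoter windows it was in 13 of 82 ribosomal protein genes (15.9%), beside 8.31% of protein-coding genes. The 13 include RPL6, RPS13 and RPS26, whose summit windows hold the word. Among the 70 ribosomal protein genes with no promoter peak on either list it was in 9 (12.9%).

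Genes whose names begin like those of ribosomal proteins were left out of the counts above. They include the ribosomal protein S6 kinases, of which RPS6KB2 had a promoter peak in LV-MEIS1 cells at 4.74-fold enrichment and RPS6KC1 one in HOXB13ko-LV-MEIS1 cells at 5.77-fold enrichment. The pseudogenes RPS14P3, RPL13AP3 and RPL21P44 were the nearest annotation to LV-MEIS1 peaks and RPL23AP82 to HOXB13ko-LV-MEIS1 peaks, all of them in introns or between genes.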
